A study of Mus musculus with 14 samples.

Results

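RNA-Seq values of 8 chemokine and homing receptor genes were compared between mutant and WT mouse CD4+ T cells activated in culture. The members were chosen by name: *Ccr7*, *S1pr1* and *Cxcr4*, which serve entry into, exit from and retention in lymphoid organs, and *Ccr2*, *Ccr4*, *Ccr8*, *Ccr9* and *Cxcr6*, which serve entry into inflamed or barrier tissues. They are 8 genes beside 15137 that were tested in the first experiment and 14028 in the second. In the first experiment, 4 HDAC1cKO-HDAC2HET samples (*Hdac1* fl/fl, *Hdac2* fl/+, *Cd4*-Cre) stood against 4 WT samples after 3 days of activation with anti-CD3 and anti-CD28 antibodies and IL-2. In the second, 3 HDAC1cKO samples (*Hdac1* fl/fl, *Cd4*-Cre, both *Hdac2* alleles intact) stood against 3 WT samples of the same 3 days of culture followed by 12 hours of restimulation with anti-CD3. All mice were on the C57BL/6 background, and the study used mice of both sexes at 6 to 12 weeks of age. *Cd4*-Cre deletes from the CD4+CD8+ thymocyte stage onward, so both helper and cytotoxic T cells of these mice lacked the floxed alleles before the naive CD4+ T cells were sorted. For the first experiment the paper describes independent cell batches of each genotype, all made on the same day. Whether each library came from a separate mouse is not said in the labels, so the p-values measure the spread between these libraries.

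Chemokine receptors are G protein-coupled receptors that sense gradients of small secreted chemokines and steer cells toward their source. Naive T cells carry CCR7, the receptor of CCL19 and CCL21, and so enter lymph nodes. S1PR1 senses sphingosine-1-phosphate, which is abundant in blood and lymph, and lets the cells leave again. Activation normally withdraws S1PR1 from the surface for some days and later exchanges lymphoid homing receptors for tissue receptors such as CCR4 for skin and lung, CCR8 for skin, CCR9 for small intestine, CXCR6 for liver and other tissues, and CCR2 for inflamed sites. HDAC1 and HDAC2 are class I histone deacetylases that remove acetyl groups from histone tails within repressor complexes.

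Levels are FPKM, fragment counts that the authors scaled to transcript length and to the mapped fragments of the library. *Hdac1* was 76.3 to 79.6 FPKM in the activated WT samples and 6.65 to 10.7 in HDAC1cKO-HDAC2HET, and 72.3 to 81.1 in the restimulated WT samples and 8.52 to 12.1 in HDAC1cKO. *Hdac2* was 58.2 to 60.3 in WT and 34.0 to 37.0 in HDAC1cKO-HDAC2HET, and 62.4 to 78.2 in WT and 74.8 to 88.1 in HDAC1cKO. All 8 T cell markers were above 1 FPKM in every group, *Cd4* and *Cd3e* among them. Estimated from the confidence bounds of low values, the libraries held 23.4 M to 55.1 M fragments. A library of the second experiment stood apart from its label group: WT replicate 3 held *Nkg7* at 151 FPKM and *Tbx21* at 46.5 FPKM, against 19.6 and 28.1 and against 15.03 and 3.04 in the other 2 WT samples. It also carried transcripts of both sexes, with *Xist* at 33.2 and Y-linked genes at a sum of 9.21 FPKM, while its *Hdac1* was 73.4 FPKM. Of the other libraries of that experiment, WT replicate 1 was of the female type and WT replicate 2 and all 3 HDAC1cKO samples were of the male type, and the first experiment was of the female type throughout. Second-experiment fold changes of *Ccr4*, *Cxcr6*, *S1pr1*, *Ccr7*, *Cxcr4*, *Klf2*, *Gpr183* and *Ccr6* are therefore given with and without WT replicate 3. They are also given with sex as a covariate, in which WT replicate 3 counted as female for its *Xist* above its Y-linked genes. In that fit the mutant coefficient equals the HDAC1cKO mean minus WT replicate 2, the only WT library of the male type. The estimate thus rests on that WT library alone. Fold changes of other genes there are given with all samples of that experiment.

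**Figure D1:**
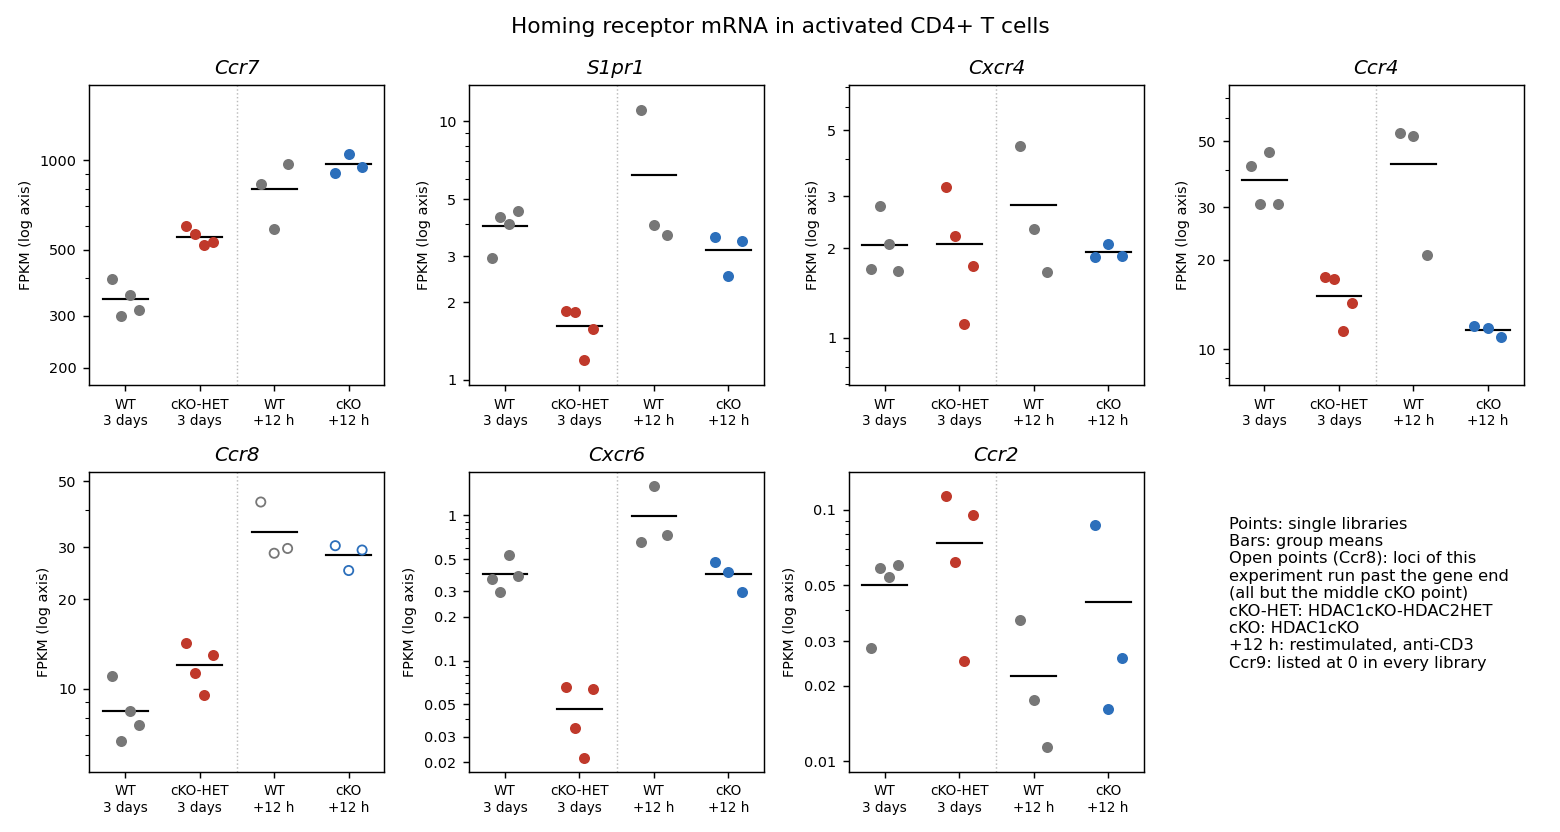
FPKM of 7 receptor genes on log axes, 1 point for each library and a bar at each group mean, with the 2 experiments separated by a dotted line and open points for *Ccr8* of the second experiment, which came from longer loci in all but the middle HDAC1cKO library. *Ccr4*, *S1pr1* and *Cxcr6* of HDAC1cKO-HDAC2HET lie below, and *Ccr7* above, all 4 WT points, whereas *Cxcr4* and *Ccr2* overlap between genotypes in both experiments.

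In the mm10 build (GRCm38), *Cxcr6* (chr9:123806475-123811760, plus strand), *Ccr9* (chr9:123678439-123784330, plus), *Ccr2* (chr9:124101950-124113557, plus), *Ccr8* (chr9:120092114-120094906, plus) and *Ccr4* (chr9:114490316-114504916, minus) all lie on chromosome 9. *Cxcr4* (chr1:128588199-128592293, minus), *S1pr1* (chr3:115710433-115715072, minus) and *Ccr7* (chr11:99144196-99155077, minus) lie elsewhere. *Cxcr6* lies within *Fyco1* (chromosome 9, minus strand), a gene of autophagosome transport on the opposite strand. The locus that covers *Fyco1* was 2.203 to 2.51 FPKM in activated WT and 1.88 to 2.11 in HDAC1cKO-HDAC2HET, a log2 change of -0.24 by the looser rule of 0.6 (adjusted p = 0.0205). The libraries were made with a stranded kit, but whether the values were computed by strand is not given in the sources used here. Of the 12 genes of the chromosome 9 receptor cluster and its neighbors, 3 were tested in the first experiment. Only *Cxcr6*, itself a member, was called, where 11.2% of all genes were.

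Promoter sequences from RefSeq (GRCm38.p6) were at hand for 6 of the 8 members, all but *Ccr7* and *S1pr1*. The 250 bases before the start are shown for *Ccr4* and *Cxcr6*, which fell in HDAC1cKO-HDAC2HET, and for *Ccr8*, which did not. For *Ccr4* the RefSeq start, chr9:114496544, lies inside the gene span given above, whose upstream end on the minus strand is 114504916. Positions for *Ccr4* are counted from the RefSeq start. They were searched on both strands for 4 short motifs: CACCC of KLF and Sp1 factors, TGTGGT of RUNX factors, AGATAA of GATA factors and GTGTGA of T-box factors. Matches are in capitals, also where they read on the opposite strand.
Ccr4, chr9:114496545-114496794, minus strand: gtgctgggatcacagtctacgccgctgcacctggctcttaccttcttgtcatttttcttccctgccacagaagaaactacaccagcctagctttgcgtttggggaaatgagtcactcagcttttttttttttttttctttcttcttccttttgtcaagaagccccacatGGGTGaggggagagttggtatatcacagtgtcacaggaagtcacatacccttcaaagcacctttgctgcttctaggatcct
Cxcr6, chr9:123806227-123806476, plus strand: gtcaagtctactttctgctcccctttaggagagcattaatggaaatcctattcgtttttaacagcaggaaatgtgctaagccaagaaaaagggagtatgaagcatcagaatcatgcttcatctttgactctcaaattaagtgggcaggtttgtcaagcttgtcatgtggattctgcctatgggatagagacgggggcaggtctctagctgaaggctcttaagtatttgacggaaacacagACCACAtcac
Ccr8, chr9:120091883-120092132, plus strand: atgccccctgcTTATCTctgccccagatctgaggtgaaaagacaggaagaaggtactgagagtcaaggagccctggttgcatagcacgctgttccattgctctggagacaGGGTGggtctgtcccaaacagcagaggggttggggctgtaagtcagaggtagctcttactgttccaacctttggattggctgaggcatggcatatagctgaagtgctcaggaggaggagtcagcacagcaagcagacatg
*Ccr4* held a CACCC match at position -81 from the start, and *Ccr8* a CACCC match at -140 and an AGATAA match at -239, all on the opposite strand. *Cxcr6* held a TGTGGT match at -10, also on the opposite strand. Of 32851 promoters of this length, 52% held CACCC, 14% TGTGGT, 9.99% AGATAA and 12.3% GTGTGA. No motif was shared by *Ccr4* and *Cxcr6*. Among the promoters searched but not shown, *Cxcr4* held CACCC at -219, *Ccr9* CACCC at -73 and *Ccr2* AGATAA at -97.

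*Ccr7* was the most abundant receptor mRNA in every group. After 3 days WT cells held *Ccr7* at 341 ± 44.2 FPKM, *Ccr4* at 37.2 ± 7.60, *Ccr8* at 8.41 ± 1.90, *S1pr1* at 3.94 ± 0.682, *Cxcr4* at 2.06 ± 0.518, *Cxcr6* at 0.393 ± 0.0982 and *Ccr2* at 0.0504 ± 0.0149 (means ± SD, n = 4). No neighbors in this order overlapped between their libraries. In HDAC1cKO-HDAC2HET cells the order closed up: *Ccr4* at 15.1 ± 2.81 overlapped with *Ccr8* at 12.03 ± 2.06, *Cxcr4* at 2.07 ± 0.891 with *S1pr1* at 1.61 ± 0.305, and *Ccr2* at 0.0736 ± 0.0388 with *Cxcr6* at 0.0466 ± 0.0220 (n = 4 each). In restimulated WT cells *Ccr4* and *Ccr8* overlapped, as did *S1pr1* and *Cxcr4*. In HDAC1cKO cells *Ccr8* lay above *Ccr4* in all 3 libraries, and no neighbors overlapped.

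After 3 days of activation the lymphoid receptors of HDAC1cKO-HDAC2HET cells moved in opposite directions. *Ccr7* mRNA rose and *S1pr1* mRNA fell, *Cxcr4* did not pass the test, and of the tissue receptors *Ccr4* and *Cxcr6* fell. *Ccr8* was slightly higher on average, with overlapping groups. A gene was called where its level changed by 2-fold or more with a limma adjusted p no higher than 0.05. Of the 6 members tested, 3 were called, all of them lower, where 11.2% of all genes were called, 5.59% higher and 5.57% lower. *Cxcr6* was among the 6 only through its WT mean of 0.393 FPKM, since its mutant mean of 0.0466 lay below the minimum of 0.1. Its call is therefore not independent of the filter. With a pseudocount of 1 only 1 of the 3, *Ccr4*, kept a 2-fold change, while *S1pr1* (-0.92) and *Cxcr6* (-0.41) kept their adjusted p and not the fold. By the adjusted p alone 5 of the 6 passed, 2 higher and 3 lower, where 51.8% of all genes passed, 24.2% higher and 27.6% lower. Passing by p alone was thus the common case in this experiment. The groups of 4 members did not overlap, 1 higher and 3 lower, where those of 50.3% of all genes did not, 23.4% higher and 26.9% lower. The median log2 fold change was -0.65 over the 6 members and -0.05 over all genes.

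*Ccr7*, the lymph node entry receptor, was 398, 300.1, 352 and 312 FPKM in the WT samples and 601, 565, 517 and 530 FPKM in the HDAC1cKO-HDAC2HET samples. Every mutant library was above every WT library, and the means stood at a ratio of 1.62. On the log2(FPKM + 0.1) scale the rise was 0.71 ± 0.10 (SE; 95% interval 0.48 to 0.93; limma adjusted p = 0.000476), which stays below 2-fold. The exact permutation p over the 70 arrangements was 0.0286, the smallest that 4 against 4 samples allow, and *S1pr1*, *Ccr4* and *Cxcr6* reached the same value.

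*S1pr1*, the egress receptor, was 2.96, 4.27, 4.01 and 4.51 FPKM in WT and 1.84, 1.84, 1.195 and 1.57 FPKM in HDAC1cKO-HDAC2HET. No libraries of the 2 groups overlapped, and the WT mean was 2.44 times the mutant mean (log2 fold change -1.24 ± 0.18, 95% interval -1.65 to -0.83, adjusted p = 0.000621). Within single libraries *Ccr7* exceeded *S1pr1* by 134, 70.3, 87.8 and 69.2 times in WT and by 326, 307, 432 and 338 times in HDAC1cKO-HDAC2HET. This ratio was chosen after its values were seen and is given without a test.

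*Cxcr4*, the receptor of CXCL12 that holds lymphocytes in bone marrow and lymphoid niches, was 1.71, 2.79, 2.07 and 1.67 FPKM in WT and 3.23, 2.21, 1.12 and 1.74 FPKM in HDAC1cKO-HDAC2HET. The groups overlapped fully, and the log2 fold change was -0.06 ± 0.31 with a 95% interval of -0.78 to 0.67 (adjusted p = 0.90). The interval spans changes in both directions, and the sign turned when single libraries were left out.

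*Ccr4*, the receptor of CCL17 and CCL22 on skin and lung homing helper cells, was 41.3, 30.8, 45.9 and 30.8 FPKM in WT and 17.5, 17.2, 11.5 and 14.3 FPKM in HDAC1cKO-HDAC2HET. All mutant libraries were below all WT libraries, with a WT mean 2.46 times the mutant mean (log2 fold change -1.29 ± 0.18, 95% interval -1.72 to -0.87, adjusted p = 0.000593). *Cxcr6*, the CXCL16 receptor of liver and other tissue T cells, was 0.365, 0.297, 0.530 and 0.381 FPKM in WT and 0.0659, 0.0347, 0.0215 and 0.0644 FPKM in HDAC1cKO-HDAC2HET. The WT mean was 8.44 times the mutant mean, and the log2 fold change on the scale with 0.1 added, which understates low genes, was -1.74 ± 0.20 (95% interval -2.21 to -1.28, adjusted p = 0.000205). At these levels few fragments lie behind a value: the Cufflinks upper confidence bounds of the 4 mutant libraries were 0.131, 0.0877, 0.0801 and 0.122 FPKM, and the lower bounds of the WT libraries were 0.240, 0.175, 0.345 and 0.245, so the bounds of the groups did not overlap.

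*Ccr8*, the CCL1 and CCL8 receptor of skin T cells, went the other way, at 11.04, 6.65, 8.45 and 7.52 FPKM in WT and 14.3, 11.3, 9.55 and 13.03 FPKM in HDAC1cKO-HDAC2HET. The highest WT library lay above the lowest mutant library, and the ratio of means was 1.43. The log2 fold change was 0.52 ± 0.18 (95% interval 0.10 to 0.94, limma adjusted p = 0.0412), the exact permutation p was 0.0571, and the limma call by adjusted p was lost in 6 of the 8 fits that left out a library. Through *Ccr4* and *Ccr8* together, *Ccr4* over *Ccr8* went from 3.74, 4.64, 5.43 and 4.10 in WT to 1.23, 1.52, 1.202 and 1.10 in HDAC1cKO-HDAC2HET, a ratio also chosen after its values were seen.

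*Ccr2* and *Ccr9* gave no test in either experiment. *Ccr2*, the CCL2 receptor of effector and monocytic cells, was 0.0283 to 0.0602 FPKM in WT and 0.0250 to 0.113 FPKM in HDAC1cKO-HDAC2HET, with a mean below the minimum of 0.1 FPKM. The locus of *Ccr9*, the CCL25 receptor of gut T cells, was listed at 0 in all 14 libraries. That locus overlaps 6 other annotated genes, *Lztfl1* and *Slc6a20a* among them, and a 0 from the assembler can be a failed estimate, so its level and its change are not described.

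**Figure D2:**
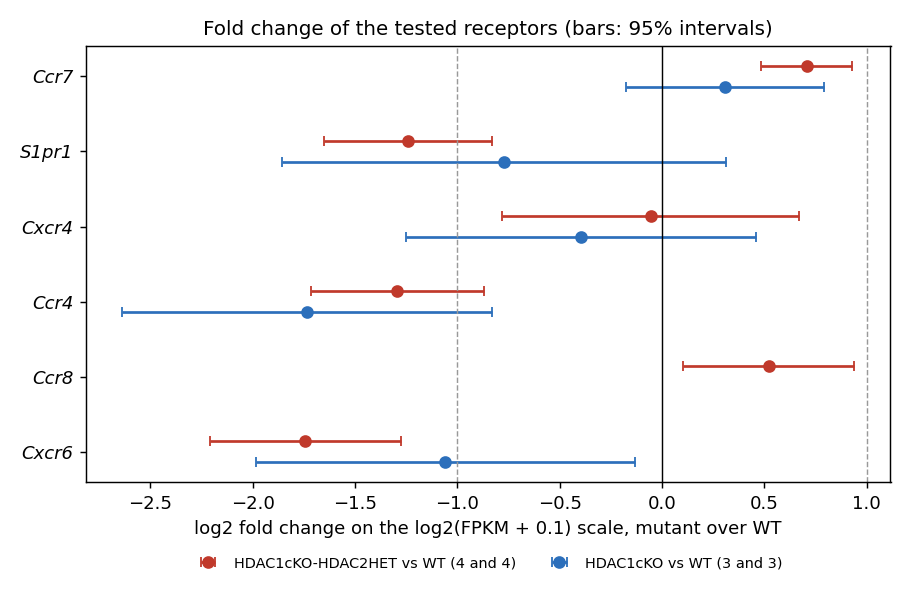
Log2 fold changes of mutant over WT with 95% intervals for the receptors that were tested, red for HDAC1cKO-HDAC2HET against WT (4 and 4 samples) and blue for HDAC1cKO against WT (3 and 3 samples), with dashed lines at 2-fold. The red intervals of *S1pr1*, *Ccr4* and *Cxcr6* lie below 0 and that of *Ccr7* above, and the blue intervals are wider.

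In the restimulated cells 0 of the 5 members tested were called in HDAC1cKO against WT, where 0.0784% of all genes were called, 0.0143% higher and 0.0642% lower. By the adjusted p of limma alone 0 of the 5 passed as well, where 0.0927% of all genes passed, 0.0285% higher and 0.0642% lower. Before adjustment 2 of the 5, *Ccr4* and *Cxcr6*, were below 0.05, where 14.2% of all genes were. In the fit over all 14 samples *Ccr4* and *Cxcr6* were called, with limma adjusted p of 0.00597 and 0.0452. That fit called 139 genes higher and 137 lower of 12367. It takes 1 spread over both experiments, although the spread differs between them. Without WT replicate 3 only *Ccr4* was called, where 23 genes were called higher and 30 lower of 13979. The groups of 3 members did not overlap, *Ccr4*, *Cxcr6* and *S1pr1*, all lower in HDAC1cKO. Over all genes the groups of 22.3% did not overlap, 9.93% higher and 12.3% lower, and with median-ratio scaling the members without overlap were 2.

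*Ccr4* was 53.2, 52.2 and 20.8 FPKM in restimulated WT cells and 11.95, 11.7 and 11.01 FPKM in HDAC1cKO cells. The third WT library, the one with RNA of both sexes and high *Nkg7*, lay between the other 2 and the mutant libraries. With all 6 samples the log2 fold change was -1.73 ± 0.37 (95% interval -2.64 to -0.83, adjusted p = 0.185). Without WT replicate 3 it was -2.18 ± 0.09 and the limma adjusted p was 0.00183. With sex as a covariate, an estimate that sets HDAC1cKO against WT replicate 2 alone, it was -2.17 ± 0.52 (adjusted p = 0.278).

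*Cxcr6* was 0.654, 1.59 and 0.727 FPKM in WT and 0.480, 0.410 and 0.295 FPKM in HDAC1cKO, with a log2 fold change of -1.06 ± 0.38 (95% interval -1.98 to -0.13, adjusted p = 0.308). Its value without WT replicate 3 was -1.21 ± 0.44 (adjusted p = 0.354) and with the sex covariate -1.79 ± 0.34 (adjusted p = 0.191). *S1pr1* was 11.03, 3.98 and 3.62 FPKM in WT and 3.58, 2.51 and 3.43 FPKM in HDAC1cKO, so the first WT library stood far above the other 5. The log2 fold change of *S1pr1* was -0.77 ± 0.44 (95% interval -1.86 to 0.31, adjusted p = 0.476), -1.06 ± 0.46 without WT replicate 3 (adjusted p = 0.427) and -0.27 ± 0.20 without WT replicate 1 (adjusted p = 0.510), and -0.33 ± 0.64 with the sex covariate (adjusted p = 0.874).

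*Ccr7* was 833, 589 and 972 FPKM in WT and 909, 1046 and 951 FPKM in HDAC1cKO, and the groups overlapped. Its log2 fold change was 0.31 ± 0.20 (95% interval -0.17 to 0.79, adjusted p = 0.524), 0.47 ± 0.18 without WT replicate 3 (adjusted p = 0.391) and 0.72 ± 0.16 with the sex covariate (adjusted p = 0.266). *Cxcr4* was 4.41, 2.32 and 1.66 FPKM in WT and 1.87, 2.06 and 1.89 FPKM in HDAC1cKO (log2 fold change -0.40 ± 0.35, adjusted p = 0.625), -0.70 ± 0.30 without WT replicate 3 (adjusted p = 0.426) and -0.25 ± 0.54 with the sex covariate (adjusted p = 0.892). *Ccr2* was 0.0363, 0.0175 and 0.0114 FPKM in WT and 0.0865, 0.0162 and 0.0259 FPKM in HDAC1cKO, below the minimum. Exact permutation over 3 against 3 samples cannot go below p = 0.1, which *Ccr4*, *Cxcr6* and *S1pr1* reached.

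*Ccr8* of this experiment came from a longer assembled locus. In 5 of the 6 libraries it ran 1098 to 1117 bases past the annotated 3′ end and shared 0.708 to 0.715 of the joint span, under the 0.8 required. With the looser rule of 0.6, *Ccr8* was 42.5, 28.6 and 29.7 FPKM in WT and 30.3, 25.005 and 29.3 FPKM in HDAC1cKO, and the groups overlapped (log2 fold change -0.23 ± 0.17, adjusted p = 0.587), a fit made with all 6 samples only. By the same rule the fold change of HDAC1cKO-HDAC2HET exceeded that of HDAC1cKO by 0.75 ± 0.25 on the log2 scale and did not pass (limma adjusted p = 0.0760). *Ccr4* over *Ccr8* was 1.252, 1.83 and 0.701 in WT and 0.394, 0.469 and 0.376 in HDAC1cKO, so that *Ccr8* exceeded *Ccr4* in WT replicate 3 and in all mutant libraries.

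The fold changes of the 2 genotypes were set against each other for the 5 members tested in both experiments, and 0 of them differed at an adjusted p of 0.05, where 9.02% of all genes did. Before adjustment the count below 0.05 was 0 as well. The log2 fold change of HDAC1cKO-HDAC2HET minus that of HDAC1cKO was 0.40 (95% interval -0.10 to 0.89) for *Ccr7*, -0.47 (-1.57 to 0.63) for *S1pr1*, 0.34 (-0.67 to 1.35) for *Cxcr4*, 0.44 (-0.49 to 1.37) for *Ccr4* and -0.68 (-1.65 to 0.28) for *Cxcr6*. Each interval holds 0, and the last 4 reach beyond 2-fold on at least one side, so neither a difference nor a like response was shown. Without WT replicate 3 the *Ccr4* difference was 0.89 (adjusted p = 0.0309), and without WT replicate 1 the *S1pr1* difference was -0.97 (adjusted p = 0.0375). Genotype, restimulation and experiment changed together, so they cannot be told apart in these differences.

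Between the experiments the WT samples themselves differed in level. *Ccr7* was 300.1 to 398 FPKM after 3 days and 589 to 972 FPKM after restimulation, *Ccr8* was 6.65 to 11.04 and 28.6 to 42.5, and *Cxcr6* was 0.297 to 0.530 and 0.654 to 1.59, none of them overlapping. *Ccr4*, at 30.8 to 45.9 and 20.8 to 53.2 FPKM, overlapped. So did *S1pr1* (2.96 to 4.51 and 3.62 to 11.03), *Cxcr4* (1.67 to 2.79 and 1.66 to 4.41) and *Ccr2* (0.0283 to 0.0602 and 0.0114 to 0.0363). The share of all genes without overlap between these WT groups was not counted, so a shift particular to the receptors is not shown. These values were not tested, since the experiments were separate and the *Ccr8* loci unlike.

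The receptors were also summed up per library as the mean log2(FPKM + 0.1) of the 3 lymphoid receptors minus that of the tissue receptors, a balance given without a test. Over all 5 tissue members, with *Ccr9* entered at its listed 0 and *Ccr2* at its values below the minimum, it was 3.41, 3.88, 3.49 and 3.60 in the activated WT samples and 4.01, 4.01, 3.74 and 3.70 in HDAC1cKO-HDAC2HET. Here the groups overlapped, with means of 3.60 ± 0.21 and 3.86 ± 0.17. Over the 3 tissue receptors with a test, *Ccr4*, *Ccr8* and *Cxcr6*, a choice made after seeing the data, the balance was 1.12, 1.84, 1.22 and 1.498 in WT and 2.18, 2.19, 1.97 and 1.91 in HDAC1cKO-HDAC2HET. Here every mutant library lay above every WT library, so whether the groups overlapped depended on *Ccr2* and *Ccr9*, which have no usable change of their own. *Cxcr6* entered this form only through its WT mean of 0.393 FPKM, so the separation is not independent of the filter.

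In the second experiment, without *Ccr8* but with *Ccr2* and *Ccr9*, the balance was 5.33, 4.15 and 4.81 in WT and 4.96, 5.13 and 5.28 in HDAC1cKO, which overlapped. Over *Ccr4* and *Cxcr6* alone it was 2.45, 0.93 and 2.16 in WT and 2.82, 2.88 and 3.17 in HDAC1cKO, all mutant libraries lying above all WT libraries, with or without WT replicate 3. On the single genes behind the balance of the first experiment, *Ccr7* rose and *S1pr1* fell on the lymphoid side, and on the tissue side *Ccr4* and *Cxcr6* were called lower, while *Ccr8*, with overlapping groups, was not called.

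**Figure D3:**
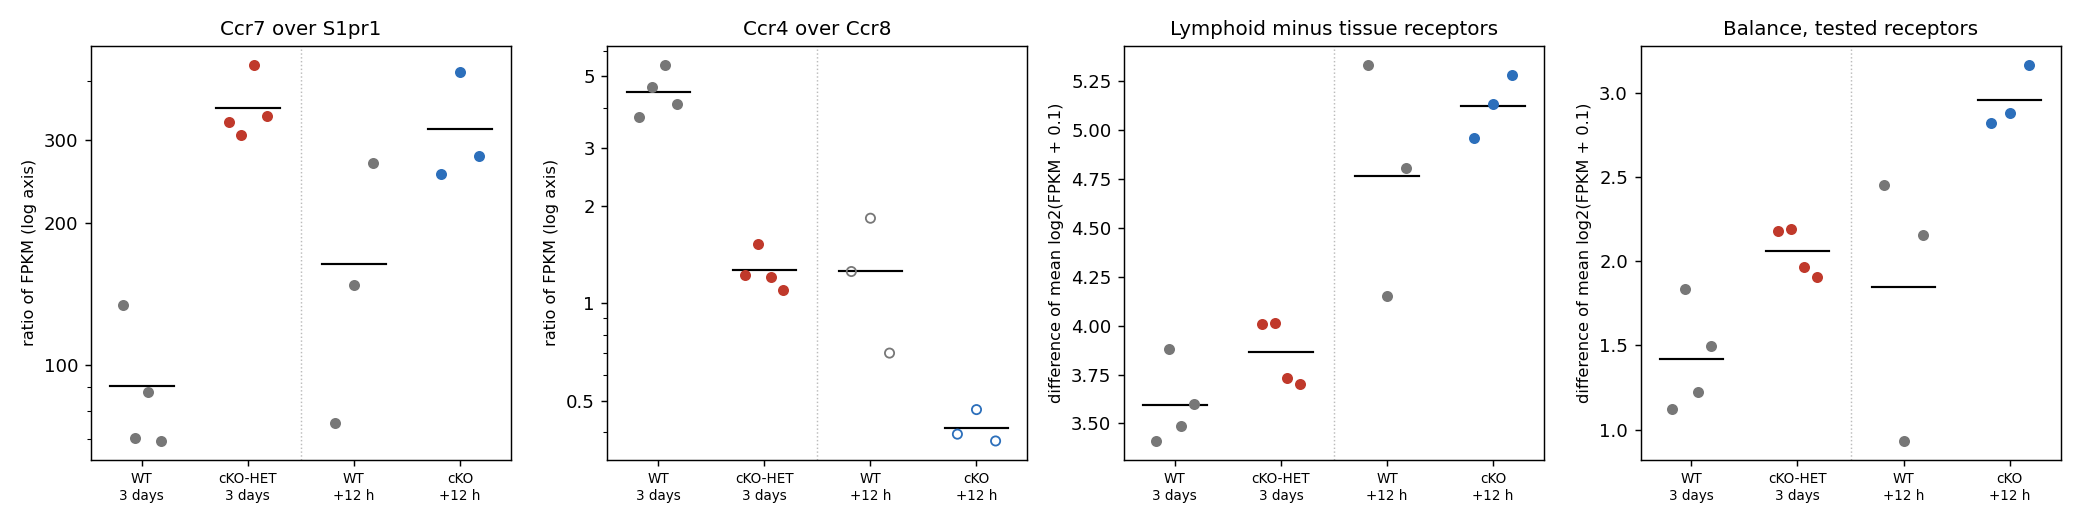
Within-library FPKM ratios of *Ccr7* over *S1pr1* and of *Ccr4* over *Ccr8* on log axes (open points, longer *Ccr8* loci in all but the middle HDAC1cKO library), and the lymphoid minus tissue balance on linear log2 scales over the tissue members (*Ccr9* at 0 and *Ccr2* included, *Ccr8* left out in the second experiment) and over the tested tissue receptors only, with a point for each library and a bar at each group mean. Both ratios of HDAC1cKO-HDAC2HET (307 to 432 and 1.10 to 1.52) lie clear of WT (69.2 to 134 and 3.74 to 5.43). The balance overlaps between genotypes in the first form but not over the tested receptors (1.12 to 1.84 in WT and 1.91 to 2.19 in HDAC1cKO-HDAC2HET). In the first experiment *Cxcr6* counts as tested only through its WT level.

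The other genes of the homing program were counted in 7 lists, to be read beside the 11.2% of all genes called and the 51.8% past the adjusted p in the first experiment. No list was tested as a list. Of 17 other chemokine receptors 5 were tested in the first experiment, and 0 were called, passed the adjusted p of limma or were below 0.05 before adjustment, where 56.5% of all genes were. Among them *Ccr6*, the CCL20 receptor, was 4.77 to 9.87 FPKM in WT and 5.51 to 7.83 in HDAC1cKO-HDAC2HET, and *Cxcr3*, the receptor of CXCL9 and CXCL10 on type 1 helper cells, was 0.220 to 0.329 and 0.202 to 0.561. Of 12 genes for ligands of the members 3 were tested and 0 were called, 2 being below 0.05 before adjustment. By adjusted p alone *Ccl1*, a CCR8 ligand, fell (log2 fold change -0.87 ± 0.25, adjusted p = 0.0209) and *Cxcl16*, the CXCR6 ligand, rose (0.79 ± 0.23, adjusted p = 0.0228).

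Of 8 genes around S1PR1 tested, 2 were called, both higher, beside 11.2% of all genes. *S1pr3*, another S1P receptor, was 0.0966 to 0.252 FPKM in WT and 0.597 to 0.921 in HDAC1cKO-HDAC2HET, and *Sphk1*, a kinase that makes S1P, was 0.169 to 0.547 and 0.961 to 1.43 FPKM. By adjusted p alone 3 were higher and 4 lower of the 8, beside 51.8% of all genes. *S1pr2* rose by a log2 fold change of 0.77 ± 0.07, and *S1pr4*, at 19.99 to 22.8 FPKM the most abundant S1P receptor in WT, changed by -0.35 ± 0.07 and fell. *Cd69*, whose product pulls S1PR1 from the surface, fell by 0.42 on the log2 scale, and *Sgpl1*, the S1P lyase, by 0.80.

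Of 14 other homing receptors and adhesion genes tested, 1 was called higher and 2 lower. *Gpr183*, the oxysterol receptor that places activated T cells at follicle borders, was 14.03 to 20.05 FPKM in WT and 3.92 to 5.25 in HDAC1cKO-HDAC2HET (log2 fold change -1.93 ± 0.13, adjusted p = 1.64e-05). *Fut7*, the fucosyltransferase that makes selectin ligands for skin entry, was 8.00 to 9.78 and 2.12 to 3.06 FPKM (-1.71 ± 0.12), whereas *Fut4*, a related enzyme, was 0.434 to 0.759 and 1.23 to 1.49 FPKM (1.11 ± 0.16).

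Of 17 transcription factors of homing programs tested, 4 were called higher and 4 lower. *Klf2*, a factor known to drive *S1pr1* in naive T cells, was 17.4 to 22.7 FPKM in WT and 1.79 to 2.53 in HDAC1cKO-HDAC2HET (log2 fold change -3.14 ± 0.13, adjusted p = 2.11e-06). *Id2* and *Id3*, inhibitors of E proteins, fell by 2.07 and 1.88 on the log2 scale. *Tbx21*, the T-bet gene of type 1 helper cells, *Runx3* and *Prdm1*, the Blimp-1 gene, rose by 1.83, 1.59 and 3.84. Of 27 signalling and desensitisation genes tested, 1 was called, *Pik3r5*, a regulatory subunit of the PI3Kγ downstream of chemokine receptors (1.37 ± 0.07).

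**Figure D4:**
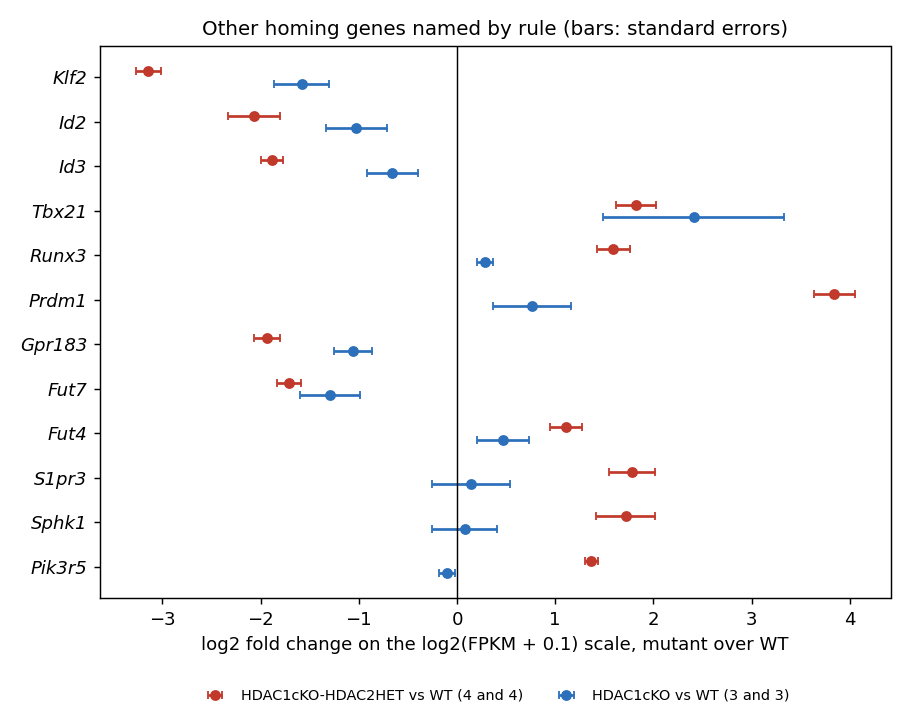
Log2 fold changes of mutant over WT with standard errors for other homing genes called in HDAC1cKO-HDAC2HET, red for that genotype (4 and 4 samples) and blue for HDAC1cKO (3 and 3 samples). At most the 6 largest changes of a list are drawn, which leaves out *Klf3* (-1.05 in HDAC1cKO-HDAC2HET) and *Zeb2* (1.45). *Klf2* (-3.14 and -1.58), *Gpr183* (-1.93 and -1.06) and *Fut7* (-1.71 and -1.29) lie below 0 in both, and the genes were chosen by the red values.

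In HDAC1cKO cells 0 genes of these 7 lists passed the adjusted p in limma, and 20 of 78 were below 0.05 before adjustment, where 14.2% of all genes were. *Klf2* was 5.52, 5.13 and 3.76 FPKM in restimulated WT and 2.23, 1.29 and 1.21 in HDAC1cKO (log2 fold change -1.58 ± 0.28, adjusted p = 0.149), with no overlap. Without WT replicate 3 *Klf2* was at -1.74 ± 0.30 (adjusted p = 0.150) and with the sex covariate at -1.69 ± 0.43 (adjusted p = 0.310). *Gpr183* was 44.2, 39.0 and 29.9 FPKM and 15.9, 21.8 and 16.2 (-1.06 ± 0.19, adjusted p = 0.149), also with no overlap, and its values in those fits were -1.22 ± 0.17 (adjusted p = 0.0947) and -1.13 ± 0.30 (adjusted p = 0.318). *Ccr6*, which was named after its values were seen, was 41.5, 66.1 and 34.3 FPKM in WT and 10.3, 20.1 and 22.1 in HDAC1cKO (-1.45 ± 0.37, adjusted p = 0.212). Its values in those fits were -1.65 ± 0.40 (adjusted p = 0.234) and -1.99 ± 0.47 (adjusted p = 0.271), and its WT level lay above that of the 3-day WT samples.

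Some markers of T cells and of other cell types differed by genotype in the first experiment, and all marker lists are given beside these results. Of the 8 T cell markers 7 fell by adjusted p in HDAC1cKO-HDAC2HET, among them *Cd3d* (log2 fold change -0.65), *Cd28* (-0.62), *Cd3e* (-0.56) and *Cd4* (-0.38), and *Thy1* rose (0.92). Of all genes 27.6% were lower and 24.2% higher by that adjusted p. Their sums were 1657 to 1774 FPKM in WT and 1447 to 1542 in HDAC1cKO-HDAC2HET. Of the 6 B cell markers all were under 1 FPKM in WT and only *Cd79b* passed 1 FPKM in HDAC1cKO-HDAC2HET, with sums of 0.561 to 1.00 and 2.82 to 4.44 FPKM. Of the 4 NK cell markers 3 had a value, and *Nkg7*, with *Klrk1* in the mutant, carried sums of 29.7 to 48.4 in WT and 154.5 to 189.4 in HDAC1cKO-HDAC2HET, while *Ncr1* stayed at or below 0.0155 FPKM. *Cd8b1*, of 2 CD8 T cell markers, was 3.24 to 5.87 and 11.4 to 14.8 FPKM, and *Cd8a* was 0.0390 to 0.0858 and 0.315 to 0.574. The sums of the 6 monocyte and macrophage markers were 0.135 to 0.310 and 0.0928 to 0.394 FPKM, with *Csf1r* and *Fcgr1* at 0 in both groups, and *Zbtb46* carried the sum of the 4 dendritic cell markers, 0.550 to 1.04 and 2.13 to 2.94. The sum of the 4 erythroid markers was at most 0.0738 FPKM. In the second experiment the sums of WT and HDAC1cKO were 3.80 to 4.86 and 6.52 to 7.30 FPKM for the CD8 T cell list, 0.807 to 1.06 and 0.835 to 1.49 for the B cell list, and 20.2 to 152 and 183.8 to 277 for the NK cell list. In bulk samples fewer cells with a transcript and less transcript per cell cannot be told apart, and the part of these markers in the receptor values was not tested.

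The genes most like each receptor were found among 10268 protein-coding genes tested in both experiments, by the root mean square difference of centered log2(FPKM + 0.1) profiles over the 14 samples. *Ccr7* was nearest to *Dusp5* (0.14), *H2-Q10* (0.16) and *Adora2a* (0.17), where its own SD over the samples was 0.60. *Ccr4*, with an SD of 0.83, was nearest to *Csn2* (0.24), *Avpr1a* (0.39) and *Fut7* (0.40), the last of them a gene of the lists above. *S1pr1* (SD 0.75) was nearest to *Tnfrsf19* (0.26), *Igf1r* (0.27) and *Zbtb10* (0.29). *Cxcr6* (SD 1.07) was nearest to *Trpa1* (0.33), *Eri2* (0.35) and *Map2* (0.36), and *Cxcr4* (SD 0.44) to *Mycn* (0.27), *Lrrc56* (0.30) and *Ptp4a1* (0.31), the latter at distances that are large beside its own spread.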

How the data were processed

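RNA-Seq libraries of activated CD4+ T cells were read with 50-bp single reads after a stranded mRNA preparation. The authors mapped each library to mm10 with TopHat and computed the deposited FPKM values and their confidence bounds with Cufflinks, assembling each library on its own. The submitters' processing notes also list STAR 2.5.2b, Subread 1.5.1 and edgeR, with no role given. Members were found by gene name, and an unnamed locus was taken where it shared at least 0.8 of the joint span with the gene or a transcript in GENCODE vM21. *S1pr1* and *Cxcr6* were listed by name in all 14 libraries, the others in 0 to 9. A gene was left out where its loci were unlike within an experiment or a matched locus was at 0.

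The 2 experiments had separate limma 3.58.1 fits (R 4.3.3) of log2(FPKM + 0.1) with an intensity trend. Genes below a mean of 0.1 FPKM were left out, and p-values took the Benjamini-Hochberg adjustment over all others. Calls needed a 2-fold change and an adjusted p no higher than 0.05. The difference between the fold changes took each experiment's own spread. Exact permutation tests were 2-sided. Depth is an estimate from the confidence bounds, of which 83.3% to 88.3% of low values gave whole fragments within 0.05. The scripts were tested on simulated data.

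The members, lists, ratios and tests were chosen with earlier results of these data known. Named were the members, *Hdac1* and *Hdac2*, genes overlapping a member, the called genes of each list (the 6 largest changes where there were more), and the 3 genes most like each member. Alternatives changed the pseudocount, filter, scaling, variance model, weights, matching of loci, covariates, fit and each library in turn. A gene of the adhesion list is not reported here.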

Additional observations from a re-analysis of the deposited data

Results flagged for a closer look

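For 12 of the 73 genes tested from the homing lists the fold change differed between the 2 mutants by the test of the difference itself (limma variances of each experiment, adjusted over all genes tested in both). Over all genes 9.02% differed, and no member was among the 12. With sex as a covariate 3 of the 12 passed (*Pik3r5*, *Rgs1* and *Runx3*), and without WT replicate 3 of the second experiment 7 passed (these 3 with *Foxo1*, *Prdm1*, *Rgs16* and *Sphk1*). The estimates of the covariate fit set HDAC1cKO against WT replicate 2 alone. With no filter on low values 4 passed, with the replicate block 7, and without HDAC1cKO replicate 2, the left-out library with the fewest, 4. The difference is given as the log2 fold change in HDAC1cKO-HDAC2HET minus that in HDAC1cKO, and genotype, restimulation and experiment cannot be told apart in it.

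Among the S1P genes the difference was 1.64 ± 0.45 (SE) for *Sphk1* (1.72 against 0.08, adjusted p = 0.0390) and -0.46 ± 0.11 for *Sgpl1* (-0.80 against -0.34, adjusted p = 0.0456). Among the homing and adhesion genes it was -0.87 ± 0.23 for *Gpr183* (-1.93 against -1.06, adjusted p = 0.0395) and 0.66 ± 0.13 for *Selplg*, which encodes the P-selectin ligand (0.87 against 0.22, adjusted p = 0.0192). Among the transcription factors it was -1.56 ± 0.31 for *Klf2* (-3.14 against -1.58, adjusted p = 0.0178), -1.22 ± 0.28 for *Id3* (-1.88 against -0.66, adjusted p = 0.0332), 1.31 ± 0.19 for *Runx3* (1.59 against 0.28, adjusted p = 0.00256) and 0.64 ± 0.12 for *Foxo1* (0.13 against -0.51, adjusted p = 0.0141). *Prdm1* differed by 3.08 ± 0.45 (adjusted p = 0.00425), but its assembled loci shared only 0.236 of their joint span between the experiments. Among the signalling genes the difference was 1.47 ± 0.11 for *Pik3r5* (1.37 against -0.10, adjusted p = 2.54e-05), -1.27 ± 0.27 for *Rgs1* (-0.72 against 0.54, adjusted p = 0.0296, loci sharing 0.759) and -1.05 ± 0.23 for *Rgs16* (-0.59 against 0.45, adjusted p = 0.0143).

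Within the groups of 4, no library of a member stood apart by Dixon's test in the 18 groups tested, *Hdac1* and *Hdac2* included.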

How the results depend on the processing

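Of the 3 members called in HDAC1cKO-HDAC2HET, only *Ccr4* kept a 2-fold change with a pseudocount of 1, the count being 1, and leaving out single libraries left it at 3. With loci listed by name only, the lists gave 2 called genes in place of 14, the members whose groups did not overlap were 2 in place of 4, and the balance difference turned from 0.27 to -0.0373, since *Ccr7* and *Ccr4* then have no value. Left-out libraries gave 13 to 14 called list genes, 4 to 6 members without overlap and a balance difference of 0.21 to 0.37. Groups with fewer libraries separate more readily. The share of all genes without overlap was not counted under these alternatives, so the member counts cannot be set against it. *Cxcr4* ranged from -0.29 to 0.19. Over the tissue receptors with a test only, an alternative chosen after seeing the data, the balance difference was 0.64, and 1.11 in HDAC1cKO. The 0.64 includes *Cxcr6*, which was tested there only through its WT level.

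In HDAC1cKO the fit over all 14 samples called 2 members and 7 list genes in place of 0, where 139 genes were called higher and 137 lower of 12367. Leaving out single libraries gave 0 to 1 called members and 0 to 0 called list genes. Members without overlap were then 3 to 5, with 5 without WT replicate 3. They were 2 with median-ratio scaling or with loci listed by name. Here too, smaller groups separate more readily, and the share of all genes was not counted under these alternatives. The balance difference with single libraries left out was 0.05 to 0.64 around 0.36, the lowest without WT replicate 2. For the difference between the fold changes, left-out libraries gave 0 to 1 called members. *Cxcr6* turned to 0.0743 with a pseudocount of 1 and to 0.0495 with the sex covariate, *Ccr7* to -0.0105 with the sex covariate, and *Cxcr4* ranged from -0.036 to 0.64; none of these passed the test.

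Same-numbered libraries showed no large shared deviation from their group means (correlations of -0.016 to 0.062), which cannot exclude a pairing of the samples. With the replicate block the members called stayed at 3, 0 and 0, as without it. Low FPKM values of *Cxcr6* and *Ccr2* limit their precision.

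Over all genes, the calls in HDAC1cKO-HDAC2HET were 846 higher and 843 lower, against 416 and 326 with a pseudocount of 1, 530 and 502 with a minimum mean of 1 FPKM, and 225 and 191 with loci listed by name. In HDAC1cKO they were 2 and 9, against 0 and 4 without a filter, 9 and 12 with the minimum of 1 FPKM, 11 and 12 with array weights, 1 and 6 by name, 0 and 5 with the replicate block, 29 and 47 with the sex covariate, 9 and 18, 6 and 19 and 23 and 30 without WT replicates 1, 2 and 3, 10 and 10 and 13 and 9 without HDAC1cKO replicates 1 and 2, and 139 and 137 in the fit over all 14 samples. The difference between the fold changes passed in 1116 genes, against 1761 with array weights, 27 by name, 613 with the replicate block, 227 with the sex covariate and 1936 with 1 spread over all samples. It passed in 548, 501 and 420 genes without HDAC1cKO replicates 1, 2 and 3, and in 700 and 714 without WT replicates 2 and 3 of that experiment. Among single genes of the lists and members, 924 values under the alternatives kept their side of the threshold, 86 lost it, 5 gained it and 6 changed sign.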
